A study of Mus musculus with 12 samples.

Results

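Transcripts of 38 chemokines and chemokine receptors were examined in mouse tumours that carry the EWSR1-ATF1 fusion, out of 55536 genes in the deposited count table. The genes were chosen by name, as the rows whose Ensembl identifier carries the symbol of 1 of 29 chemokines or 9 receptors, and they are described by the cells each chemokine attracts. The 38 symbols matched 39 identifiers, since Ccl19 has a second copy on an unplaced scaffold, which held 0 counts and was left out. EWSR1-ATF1 is the fusion found in clear cell sarcoma, a rare soft tissue cancer that shares features with melanoma. In the translocation tumours (n = 5, genotype HprtCre; Ewsr1-loxP; Atf1-loxP), Cre came from the Hprt locus and loxP sites lay in both mouse genes. In the Rosa26 tumours (n = 6, genotype Rosa26-LSL-EWSR1-ATF1), a fusion transgene at the Rosa26 locus lay behind a loxP-flanked stop, and the labels do not name the source of Cre. Wild-type skeletal muscle was represented by 1 library. The labels name no drug and give neither age nor sex. They do not say whether samples came from separate animals, so p-values measure only the spread between these samples, which may be technical. The titles of Rosa26 tumours 5 and 6 differ only in their last digit, and those of translocation tumours 2 and 5 share a number. Those of translocation tumour 1 and the muscle library share a number too.

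Chemokines are small secreted proteins that guide leukocytes along a gradient by binding G protein-coupled receptors on the cells they attract. They are classed by the spacing of their first cysteines as CC, CXC or CX3C, and many of their genes lie in tight clusters that arose by duplication. In tumours, monocyte attractants, neutrophil attractants and the T cell attractants induced by interferon-gamma are known for shaping which leukocytes enter, while a few ligands, such as Cxcl12 and Cxcl14, are made by stromal and epithelial cells without inflammation.

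Total counts per library ran from 2.96 to 21.2 M (translocation tumours) and from 6.82 to 21.5 M (Rosa26 tumours), and the muscle library held 25.04 M. The libraries with the fewest counts, translocation tumour 2 and Rosa26 tumour 4, gave 37.8% and 30% of them to genes that hold ribosomal sequence. Of the 38 genes, 23 to 37 had at least 1 count in each translocation tumour and 30 to 38 in each Rosa26 tumour. At the engineered loci, Atf1 lay between 37.0 and 73.3 CPM (counts scaled to library size) in the translocation tumours and between 21.3 and 27.3 CPM in the Rosa26 tumours, without overlap. By Xist and Y-linked genes, translocation tumours 1 to 4 and Rosa26 tumours 1 and 4 read as female and the other 5 tumours as male, so sex was unevenly spread over the genotypes. Translocation tumours 2 and 5, whose titles share a number, thus read as different sexes, while Rosa26 tumours 5 and 6 both read as male. The muscle library held 47196 CPM of Acta1, the skeletal muscle actin, and Rosa26 tumour 1 held 6047 CPM of it.

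The comparison of translocation with Rosa26 tumours asked whether the chemokine profile depended on how the fusion was expressed. Pf4, the platelet factor, was higher in the translocation tumours, and Cxcl9, an interferon-induced T cell attractant, was lower. These were, by the quasi-likelihood test of edgeR adjusted over all genes by Benjamini-Hochberg, the 2 called among the 26 genes with enough counts to test, or 7.69%, against 2.7% of all 17021 genes tested. Of all genes, 1.14% were called higher and 1.56% lower in the translocation tumours, against 1 of the 26 in each direction. The tumour groups did not overlap for Pf4 and Cxcl9, or 7.69% of the 26, against 5.18% of all genes. At an unadjusted p under 0.05 there were 11 of the 26 (4 higher and 7 lower), or 42.3%, against 24.8% of all genes. Fold changes were positive for 13 and negative for 13, with a median log2 fold change of 0.02, against 0.07 over all genes. They were wide: 8 of the 26, or 30.8%, had an absolute log2 fold change of 2 or more, against 7.31% of all genes. The other 12 genes had too few counts for the test and are given by their values: Ccl3, Ccl4, Ccl17, Ccl19, Ccl20, Cxcl2, Cxcl3, Cxcl5, Ppbp, Cxcl10, Cxcl11 and Cxcr2.

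**Figure D1:**
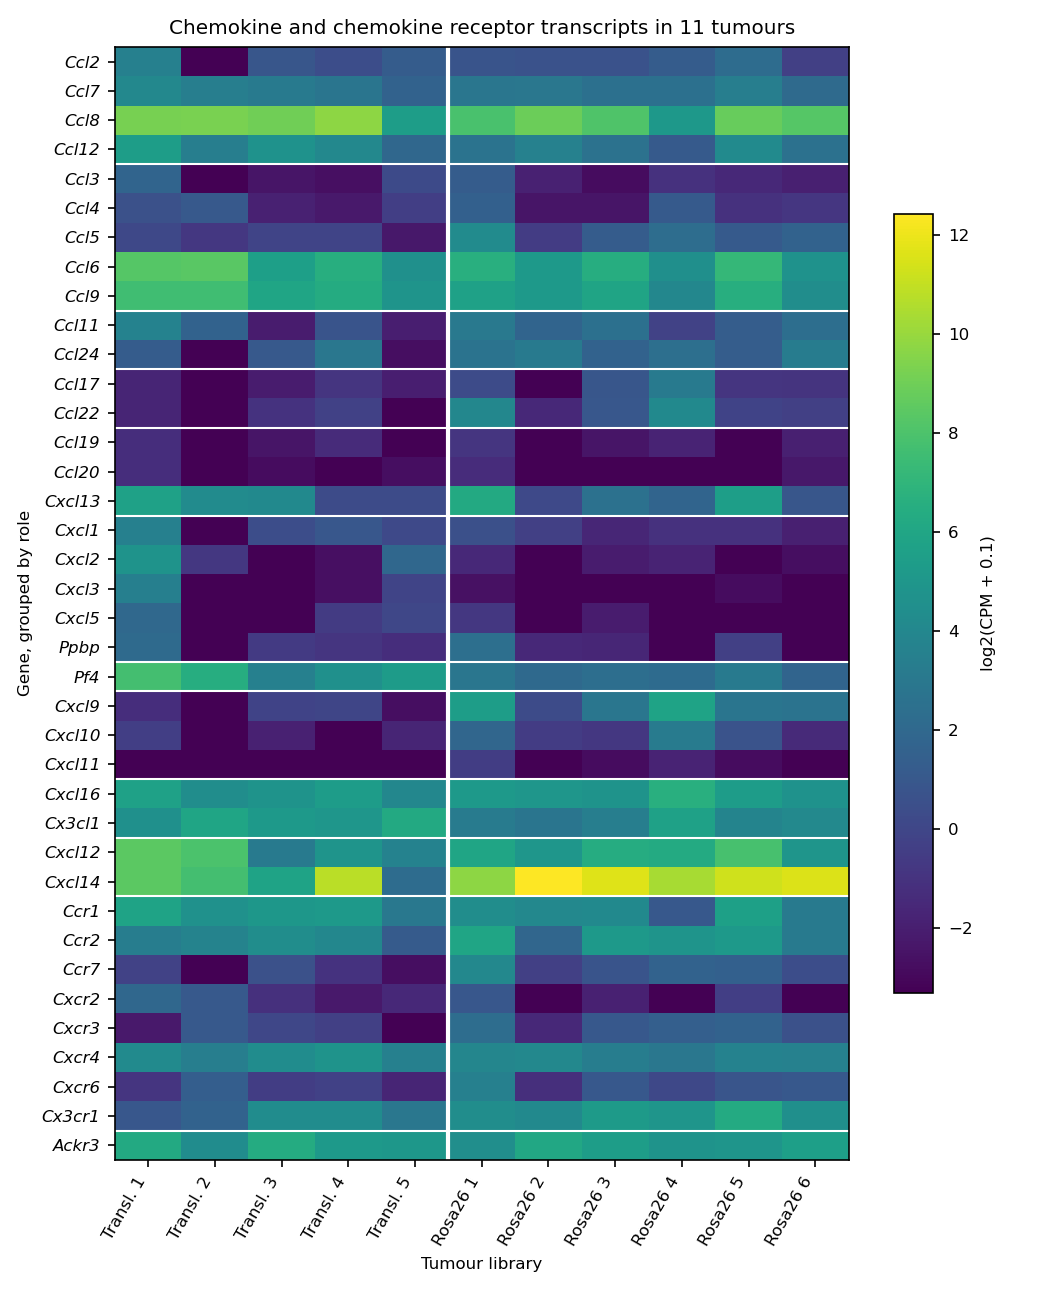
Level of each of the 38 genes (rows, grouped by role) in the 5 translocation and 6 Rosa26 tumours (columns), as log2(CPM + 0.1) with CPM scaled by TMM. Cxcl14 and Ccl8 are the brightest rows, and the neutrophil attractants Cxcl1, Cxcl2, Cxcl3 and Cxcl5 are brightest in translocation tumour 1.

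**Figure D2:**
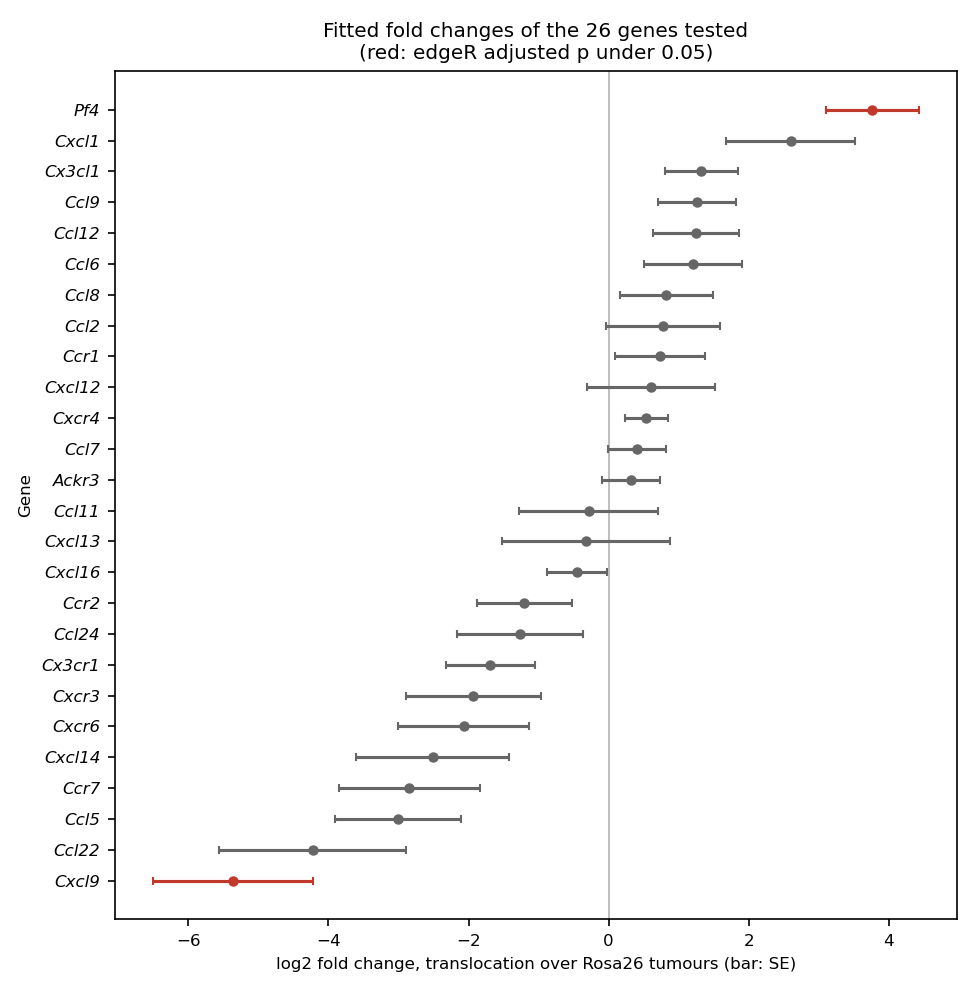
Fitted log2 fold change, translocation over Rosa26 tumours, of the 26 genes tested, with bars of 1 standard error. Red marks the 2 genes with an edgeR adjusted p under 0.05, Pf4 at 3.76 and Cxcl9 at -5.36, and grey marks the other 24.

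Pf4 stood in a cluster of 6 CXC chemokine genes on mouse chromosome 5 (chr5:90759360-90905938, mm10) with the neutrophil attractants Cxcl5, Ppbp, Cxcl3, Cxcl1 and Cxcl2. The stretch just upstream of each start is printed for the members of the cluster that the results turn on. For Pf4 these are bases -250 to -31 from the RefSeq start, and for the others bases -130 to -31, 5′ to 3′ on the gene's strand, from RefSeq on GRCm38.p6, the assembly of mm10. Capitals mark matches to the letters of an NF-kB site (GGG, any 5 bases, then CC) on either strand, with overlapping matches joined.
Pf4 (chr5:90772185-90772404, plus strand): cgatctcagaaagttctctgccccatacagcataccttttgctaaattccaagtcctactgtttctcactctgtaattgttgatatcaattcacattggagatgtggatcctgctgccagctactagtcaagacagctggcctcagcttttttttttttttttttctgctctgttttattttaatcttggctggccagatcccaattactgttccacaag
Cxcl1 (chr5:90891115-90891214, plus strand): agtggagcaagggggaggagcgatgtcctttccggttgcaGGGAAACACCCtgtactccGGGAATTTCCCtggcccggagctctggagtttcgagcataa
Cxcl2 (chr5:90903769-90903868, plus strand): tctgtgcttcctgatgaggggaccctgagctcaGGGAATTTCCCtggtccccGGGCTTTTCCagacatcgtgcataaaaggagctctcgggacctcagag
Cxcl3 (chr5:90785971-90786070, plus strand): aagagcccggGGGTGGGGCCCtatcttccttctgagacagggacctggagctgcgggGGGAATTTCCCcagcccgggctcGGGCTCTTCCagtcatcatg
The run GGGAATTTCC occurred in the windows of Cxcl1, Cxcl2 and Cxcl3, and it was singled out after the matches were seen. It was found on either strand in 29 of 32851 RefSeq windows of the same length (250 bases before to 50 after a start), or 0.0883%. The loose NF-kB pattern was common. It occurred in 15 of the 28 of these genes that had a window, or 53.6%, against 50.8% of all windows, and it did not occur in the window of Pf4.

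Pf4 (platelet factor 4, ENSMUSG00000029373, chr5:90772435-90773383) is a CXC chemokine stored in platelet granules and made by megakaryocytes and some macrophages. It was 209, 89.1, 11.3, 23.4 and 40.2 CPM in translocation tumours 1 to 5, and 3.25 to 8.64 CPM with a median of 4.78 CPM in the Rosa26 tumours. Every translocation tumour lay above every Rosa26 tumour, and translocation tumours 1 and 2 were the highest. The means were 74.6 ± 80.6 CPM (SD, n = 5) and 5.46 ± 2.06 CPM (SD, n = 6), a rise of 13.6-fold (log2 fold change 3.76 ± 0.66 SE, edgeR adjusted p = 0.0181). The muscle library held 4.00 CPM on the scale of all 12 libraries. Without translocation tumour 1 the log2 fold change was 2.87 (edgeR adjusted p = 0.0390), and leaving out Rosa26 tumour 3 or 6 ended the call (edgeR adjusted p = 0.0629 and 0.0594).

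Platelet and megakaryocyte markers followed the order of Pf4 only in part. Their summed level over 8 genes was 23.7 and 17.3 CPM in translocation tumours 1 and 2, but 3.36, 3.04 and 0.772 CPM in tumours 3 to 5, and 2.34 to 9.30 CPM in the Rosa26 tumours. Itga2b, the integrin chain of platelets, was 14.2 and 11.9 CPM in translocation tumours 1 and 2 and 0.464 CPM in tumour 5, which held 40.2 CPM of Pf4. Gp9, the other defining marker, was at 0 in 4 of 11 tumours and at most 1.18 CPM. The macrophage list, summed over 10 genes, was 2130 and 2190 CPM in translocation tumours 1 and 2, 602 to 1295 CPM in tumours 3 to 5, and 700 to 2119 CPM in the Rosa26 tumours, so these groups overlapped. In bulk samples such as these, fewer cells of a type and less RNA per cell cannot be told apart. The part of any cell type in the Pf4 difference was not tested.

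Of the neutrophil attractants in the cluster, ligands of Cxcr2, all but Ppbp were highest in translocation tumour 1. Cxcl2 was 26.9, 0.495, 0, 0.0562 and 3.66 CPM in translocation tumours 1 to 5, or 323 counts in all, of which 250 came from tumour 1. The Rosa26 tumours held 0 to 0.245 CPM with a median of 0.0925 CPM, or 9 counts in all. Tumours 1 and 5 lay above all Rosa26 tumours, as did tumour 2 by 1 count, while tumours 3 and 4 lay within the Rosa26 range, so the groups overlapped.

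Cxcl3 was 10.96, 0, 0, 0.0562 and 0.824 CPM in translocation tumours 1 to 5, with no Rosa26 tumour above 0.0612 CPM (119 against 2 counts). Cxcl5 was 3.87 CPM in translocation tumour 1, with no other tumour above 0.927 CPM. Both followed Cxcl2 in being highest in translocation tumour 1, with tumour 5 second. None of the 3 passed the filter on low counts. In a fit without that filter, Cxcl2, Cxcl3 and Cxcl5 had log2 fold changes of 5.84, 6.37 and 3.16 and were not called (edgeR adjusted p = 0.116, 0.0843 and 0.226).

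Cxcl1, the member of this role with enough counts to test, was 11.7, 0, 1.19, 1.86 and 1.03 CPM in translocation tumours 1 to 5. Rosa26 values ran from 0.157 to 1.35 CPM with a median of 0.374 CPM. The highest value was again translocation tumour 1, and the groups overlapped. The log2 fold change was 2.60 ± 0.92 (SE, edgeR adjusted p = 0.116) and 1.05 without translocation tumour 1 (edgeR adjusted p = 0.410). Ppbp, the other platelet chemokine of the cluster, did not share the pattern of Pf4, with 4.19 CPM in translocation tumour 1, 5.26 CPM in Rosa26 tumour 1 and at most 0.693 CPM elsewhere. Cxcr2, the receptor of these ligands on neutrophils, was 3.65 and 1.98 CPM in translocation tumours 1 and 2, 1.83 CPM in Rosa26 tumour 1 and at most 0.652 CPM in the other 8.

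Neutrophil markers moved in part with these ligands. S100a8 and S100a9, calgranulins of neutrophils and monocytes, were 28.6 and 60.5 CPM in translocation tumour 1 and 14.4 and 52.5 CPM in tumour 2, where Cxcl2 was 0.495 CPM. In translocation tumours 3 to 5 S100a9 was 1.59, 5.40 and 8.50 CPM, and no Rosa26 tumour exceeded 9.98 CPM. Ly6g, which defines mouse neutrophils, was at 0 in 9 of 11 tumours and at most 0.215 CPM. The sum over the 9 neutrophil markers was 154 CPM in translocation tumour 1, 17.9 to 412 CPM in the other translocation tumours and 12.3 to 58.6 CPM in the Rosa26 tumours. The 412 CPM, in translocation tumour 3, was nearly all Mmp9, a protease, at 403 CPM. Csf3r, the receptor for the neutrophil growth factor, was 1.03 to 21.2 CPM in the translocation and 4.87 to 17.9 CPM in the Rosa26 tumours (log2 fold change -0.55). Their part in the level of the ligands was not tested.

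The ligands of Cxcr3, a receptor of activated T cells, stood further along the same chromosome (chr5:92321347-92365485) and went the other way. Cxcl9, Cxcl10 and Cxcl11 are induced by interferon-gamma. The upstream windows of the first 2 are shown because Cxcl9 carried the larger of the 2 calls and Cxcl10 followed it in level. Capitals mark matches to the NF-kB pattern or to the letters of an interferon response element (TTTC, any 2 bases, then TTTC) on either strand (RefSeq, GRCm38.p6, bases -250 to -31).
Cxcl9 (chr5:92328110-92328329, minus strand): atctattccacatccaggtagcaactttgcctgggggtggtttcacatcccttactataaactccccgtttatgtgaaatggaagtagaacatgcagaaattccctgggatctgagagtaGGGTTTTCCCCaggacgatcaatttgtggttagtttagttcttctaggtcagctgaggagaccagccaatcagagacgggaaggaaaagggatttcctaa
Cxcl10 (chr5:92348920-92349139, minus strand): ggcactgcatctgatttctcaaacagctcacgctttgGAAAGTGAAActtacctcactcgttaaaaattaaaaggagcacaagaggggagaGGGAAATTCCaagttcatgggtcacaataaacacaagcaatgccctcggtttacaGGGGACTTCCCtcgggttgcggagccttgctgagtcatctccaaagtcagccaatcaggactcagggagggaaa
The interferon pattern occurred in the windows of Cxcl10, Ccl19 and Cxcl14, 3 of the 28 or 10.7%, against 3.44% of all windows. The STAT pattern TTCNNNGAA occurred in 2 of the 28 (Ccl17 and Cxcl14), or 7.14%, against 8.30%. Since ATF1 binds cAMP response elements, those letters were searched too. The full element TGACGTCA occurred in 0 of the 28 windows, against 1.79% of all windows. Its core TGACG occurred in 4 (Ccl22, Cxcl1, Cxcl12 and Cxcr6), or 14.3%, against 20.8%.

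Cxcl9 (ENSMUSG00000029417, chr5:92321347-92328079) was 0.322, 0, 0.795, 0.900 and 0.0515 CPM in translocation tumours 1 to 5, or 38 counts in all. In the Rosa26 tumours it was 1.11 to 55.6 CPM with a median of 7.04 CPM, or 1474 counts, and Rosa26 tumours 1 and 4 were the highest. No translocation value reached the lowest Rosa26 value, but the count of 0 in translocation tumour 2 allows up to 1.49 CPM (3 counts), above the 1.11 CPM of Rosa26 tumour 2. The means were 0.414 ± 0.416 CPM (SD, n = 5) and 20.2 ± 23.4 CPM (SD, n = 6), and Cxcl9 fell by 5.36 on the log2 scale in the translocation tumours (SE 1.14, edgeR adjusted p = 0.0333). Leaving out translocation tumour 1 ended the call (edgeR adjusted p = 0.0784), and so did leaving out Rosa26 tumour 3, 4, 5 or 6 (edgeR adjusted p = 0.0753, 0.0589, 0.0577 and 0.0692). It also ended with Rosa26 tumours 5 and 6 summed as 1 sample (edgeR adjusted p = 0.0610). Without Rosa26 tumour 4 the log2 fold change was -4.76. Rosa26 tumours 1 and 4, which read as female, held 44.0 and 55.6 CPM, against at most 0.900 CPM in the 4 female translocation tumours. Rosa26 tumours 2, 3, 5 and 6, which read as male, held 1.11 to 7.15 CPM, against 0.0515 CPM in the male translocation tumour 5. With sex as a covariate the log2 fold change was -6.36 (edgeR adjusted p = 0.00519).

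Cxcl10 was 0.644, 0, 0.177, 0 and 0.206 CPM in translocation tumours 1 to 5, with 14 counts in all. In the Rosa26 tumours it was 0.262 to 9.15 CPM with a median of 1.07 CPM, with 168 counts, and as for Cxcl9 tumours 4 and 1 were the highest. It missed the filter, and without the filter its log2 fold change was -3.52 (edgeR adjusted p = 0.130). Cxcl11, annotated as a polymorphic pseudogene in this strain reference, had 0 counts in every translocation tumour and 13 in the Rosa26 tumours. Cxcl10 and Cxcl11 lie within Art3 on the other strand, and the sources used here do not state whether counting used strand. Cxcr3 itself was 0 to 1.98 CPM in the translocation tumours and 0.256 to 4.83 CPM in the Rosa26 tumours (log2 fold change -1.93, edgeR adjusted p = 0.239).

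T cell markers moved in part with the Cxcr3 ligands. Cd3e, a chain of the T cell receptor complex, was 0 to 0.225 CPM in the translocation tumours and 0.256 to 13.8 CPM in the Rosa26 tumours, and it was called (log2 fold change -4.93, edgeR adjusted p = 0.0413). Trac, the constant region of the T cell receptor alpha chain, was called as well (log2 fold change -4.67, edgeR adjusted p = 0.0498). Of 8 T cell markers, 6 could be tested, all 6 had negative fold changes and 2 were called. The summed list was highest in Rosa26 tumours 1 and 4, at 88.0 and 41.2 CPM, the same tumours that were highest in Cxcl9. It was 6.75 to 23.4 CPM in the other Rosa26 tumours, and 3.33, 2.97, 24.9, 8.44 and 2.42 CPM in translocation tumours 1 to 5. Of the 24.9 CPM in translocation tumour 3, Cd4 gave 23.3 CPM, while Cd3e was 0.13 CPM there. Ifng, the inducer, reached 0.990 CPM in a translocation tumour and 1.16 CPM in a Rosa26 tumour, and it was too low to test. Whether T cell content accounts for the Cxcl9 values was not tested.

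**Figure D3:**
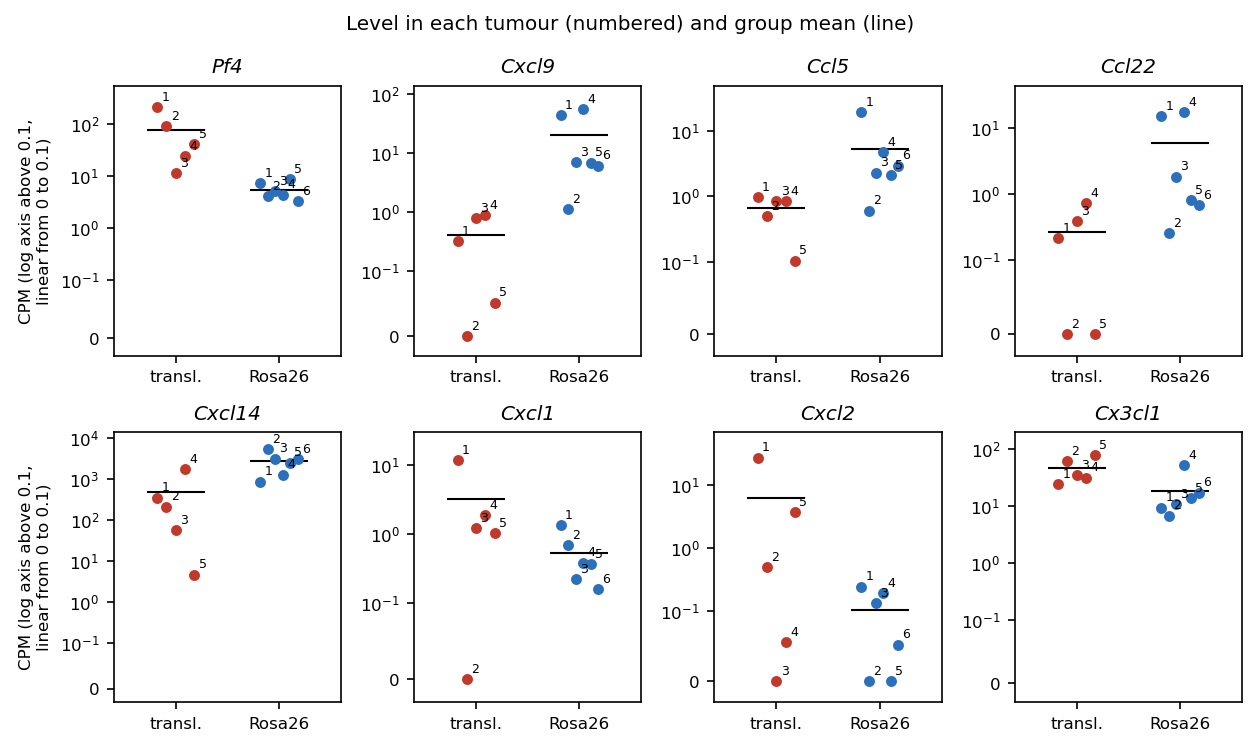
CPM of 8 genes in each tumour (points, numbered), with the group mean as a line, on an axis that is logarithmic above 0.1 CPM and linear below. The groups do not overlap for Pf4 and Cxcl9, and translocation tumour 1 stands above all others for Cxcl1 (11.7 CPM) and Cxcl2 (26.9 CPM).

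**Figure D4:**
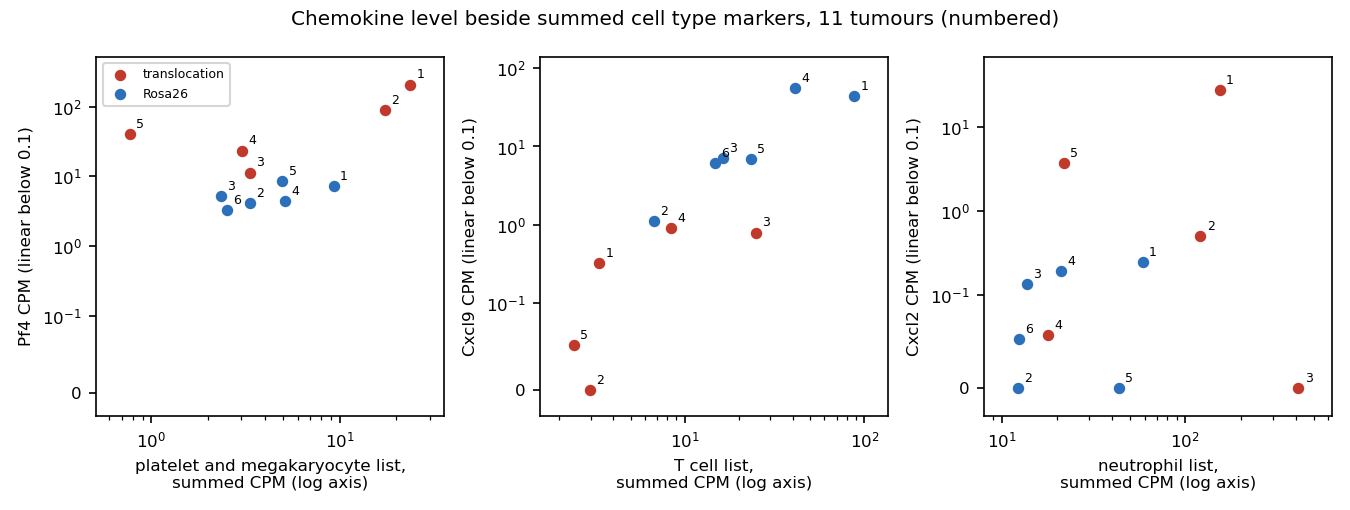
Level of Pf4, Cxcl9 and Cxcl2 (vertical axes, CPM) beside the summed CPM of platelet, T cell and neutrophil markers (horizontal log axes) in 11 numbered tumours. Translocation tumour 5 has 40.2 CPM of Pf4 at the lowest platelet sum of 0.772 CPM, and Rosa26 tumours 1 and 4 have both the highest T cell sums and the highest Cxcl9. In translocation tumour 3, Cd4 gives 23.3 of the 24.9 CPM of the T cell sum.

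The monocyte attractants were expressed in both kinds of tumour. All 4 had positive fold changes, with log2 values from 0.41 to 1.24, and edgeR called 0 of the 4 (0 at an unadjusted p under 0.05, 0 by DESeq2, and 1, Ccl12, by limma voom). Over all 17021 genes tested, limma voom called 2677 and DESeq2 2439. Ccl2, Ccl7, Ccl12 and Ccl8 lie with Ccl11 in a cluster on chromosome 11 (chr11:82035571-82116799). Ccl8, a CC chemokine made by macrophages, was the most abundant of the 38 genes per kilobase of exon in the translocation tumours, at 1012 CPM per kilobase, and the second in the Rosa26 tumours, at 571 CPM per kilobase. It was 575, 600, 512, 854 and 44.3 CPM in translocation tumours 1 to 5, and 33.4 to 468 CPM with a median of 286 CPM in the Rosa26 tumours. Translocation tumour 5 and Rosa26 tumour 4 lay far below the rest, which were all at 243 CPM or more, and the groups overlapped. The log2 fold change was 0.82 ± 0.67 (SE, edgeR adjusted p = 0.473).

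Ccl12 was 3.81 to 43.5 CPM in the translocation tumours and 2.10 to 18.6 CPM in the Rosa26 tumours (log2 fold change 1.24, edgeR adjusted p = 0.231). Ccl7 was 3.04 to 16.1 and 4.20 to 10.6 CPM (log2 fold change 0.41, edgeR adjusted p = 0.580). Ccl2, the best known attractant of inflammatory monocytes, was lower than its neighbours, at 11.6 CPM in translocation tumour 1 and 0 to 4.65 CPM in the other 10. Its log2 fold change was 0.77 (edgeR adjusted p = 0.591) and turned to -0.50 when translocation tumour 1 was left out.

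The inflammatory CC ligands divided. They lie together on chromosome 11 (chr11:83525778-83664683). Ccl6, a mouse ligand of Ccr1 made by macrophages, was 305, 332, 47.8, 91.7 and 23.5 CPM in translocation tumours 1 to 5. Rosa26 values ran from 22.7 to 142 CPM with a median of 63.2 CPM, so the groups overlapped and translocation tumours 1 and 2 alone lay above them. The log2 fold change was 1.21 ± 0.70 (SE, edgeR adjusted p = 0.306). Its neighbour Ccl9 was likewise highest in translocation tumours 1 and 2, at 197 and 191 CPM, against 15.6 to 94.3 CPM in the Rosa26 tumours (log2 fold change 1.26, edgeR adjusted p = 0.182).

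Ccl5, a T cell and monocyte attractant made by T cells and NK cells, went the other way. It was 0.967, 0.495, 0.839, 0.844 and 0.103 CPM in translocation tumours 1 to 5, and 0.598 to 19.4 CPM with a median of 2.62 CPM in the Rosa26 tumours. Rosa26 tumour 1 was the highest, and Rosa26 tumour 2 fell within the translocation range. The log2 fold change was -3.00 ± 0.90 (SE, edgeR adjusted p = 0.0792), and -1.91 without Rosa26 tumour 1 (edgeR adjusted p = 0.124). Ccl3 and Ccl4, too low to test, were at most 3.33 and 2.75 CPM in any tumour.

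The eosinophil attractants Ccl11 and Ccl24, ligands of Ccr3, were low in both groups. Ccl24 was 2.26, 0, 1.99, 7.48 and 0.0515 CPM in translocation tumours 1 to 5, and 2.36 to 9.76 CPM with a median of 5.76 CPM in the Rosa26 tumours. The groups overlapped through translocation tumour 4 (log2 fold change -1.27 ± 0.90 SE, edgeR adjusted p = 0.413). Ccl11, or eotaxin, was 12.7 CPM in translocation tumour 1, with no other value above 8.32 CPM (log2 fold change -0.28, edgeR adjusted p = 0.890). Its log2 fold change was -2.05 without translocation tumour 1, and it turned to 0.0377, 0.0305 and 0.0215 without translocation tumour 3 or 5 or Rosa26 tumour 1. The 6 eosinophil markers summed to 14.9 CPM in translocation tumour 2 and 16.3 CPM in Rosa26 tumour 1, with no other tumour above 1.08 CPM. Of the defining markers, Epx, the eosinophil peroxidase, was at most 0.309 CPM in any tumour, and Prg2, the major basic protein, was 9.90 CPM in translocation tumour 2, with no other value above 0.795 CPM. Their part in the levels of Ccl11 and Ccl24 was not tested.

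The ligands of Ccr4, a receptor of regulatory and type 2 helper T cells, are made chiefly by dendritic cells. Both were lower in the mean of the translocation tumours, without a call. Ccl22 was 0.215, 0, 0.398, 0.731 and 0 CPM in translocation tumours 1 to 5, and 0.256 to 17.3 CPM with a median of 1.34 CPM in the Rosa26 tumours. Rosa26 tumours 4 and 1, at 17.3 and 15.3 CPM, carried most of the difference, and Rosa26 tumours 2 and 6 fell within the translocation range. The log2 fold change was -4.23 ± 1.33 (SE, edgeR adjusted p = 0.0878). Ccl17, too low to test, did not exceed 0.450 CPM in the translocation tumours and was 8.58 CPM in Rosa26 tumour 4. Itgax, which encodes the dendritic cell and macrophage integrin CD11c, was 1.98 to 9.90 CPM in the translocation tumours and 20.1 to 91.5 CPM in the Rosa26 tumours and was called (log2 fold change -2.84, edgeR adjusted p = 0.0285). It too was highest in Rosa26 tumour 4. The other 6 markers on the dendritic cell list were not called. Of the list's defining markers, Flt3 had a log2 fold change of 0.69 and Zbtb46 one of -0.83. Over the 7 markers, 2 fold changes were positive and 5 negative. The part of dendritic cells in the levels of Ccl17 and Ccl22 was not tested.

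Among the ligands that home lymphocytes to lymphoid tissue, Ccl19 and Ccl20 were near 0 in every tumour, at most 0.428 and 0.322 CPM. Cxcl13, which attracts B cells through Cxcr5, varied widely within both groups. It was 50.8, 19.3, 17.8, 1.12 and 1.13 CPM in translocation tumours 1 to 5, and 1.02 to 77.1 CPM with a median of 4.56 CPM in the Rosa26 tumours. The groups overlapped over nearly their whole range (log2 fold change -0.32 ± 1.20 SE, edgeR adjusted p = 0.899). Cxcl13 had a log2 fold change of 0.65 without Rosa26 tumour 1 and -1.27 without translocation tumour 1. Rosa26 tumour 1, the highest, also held 22.6 CPM of the receptor Cxcr5 and 88.8 CPM of the B cell gene Ms4a1, which were at most 1.08 and 0.495 CPM in the other 10 tumours. Their part in the Cxcl13 value was not tested, and in Rosa26 tumour 5 Cxcl13 was 45.0 CPM with 0.448 CPM of Ms4a1.

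The ligands that are anchored in the membrane and then shed were expressed in every tumour. Cxcl16, the ligand of Cxcr6, was 51.7, 21.3, 27.0, 41.8 and 15.5 CPM in translocation tumours 1 to 5, and 26.2 to 98.3 CPM with a median of 32.7 CPM in the Rosa26 tumours. Rosa26 tumour 4 stood alone at the top, and the other tumours overlapped (log2 fold change -0.45 ± 0.42 SE, edgeR adjusted p = 0.541). Cxcl16 overlaps Zmynd15 on the other strand.

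Cx3cl1, or fractalkine, was 24.2, 60.4, 34.8, 31.2 and 76.9 CPM in translocation tumours 1 to 5, and 6.75 to 52.0 CPM with a median of 12.2 CPM in the Rosa26 tumours. Rosa26 tumour 4 was the 1 Rosa26 tumour that reached into the translocation range. The log2 fold change was 1.33 ± 0.52 (SE, edgeR adjusted p = 0.148), and without Rosa26 tumour 4 it was 2.001 and called (edgeR adjusted p = 0.0355). Its receptor Cx3cr1, found on monocytes and resident macrophages, had the opposite sign. It was 1.83, 2.97, 20.4, 20.2 and 7.47 CPM in translocation tumours 1 to 5 and 17.3 to 78.5 CPM with a median of 26.2 CPM in the Rosa26 tumours (log2 fold change -1.69 ± 0.64 SE, edgeR adjusted p = 0.136). Translocation tumours 3 and 4 reached the Rosa26 range, and tumours 1, 2 and 5 lay below it. The annotated Cx3cr1 gene spans 9 other genes on both strands, so its counts may hold reads of others. In the muscle library Cx3cr1 had 2 counts, or 0.195 CPM on the scale of all 12 libraries.

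Of the stromal ligands, Cxcl14 was the most abundant of the 38 genes per kilobase of exon in the Rosa26 tumours, at 1504 CPM per kilobase, and the second after Ccl8 in the translocation tumours, at 263 CPM per kilobase. Cxcl14 is made by epithelial cells and fibroblasts and attracts monocytes and immature dendritic cells. It was 354, 213, 56.2, 1778 and 4.69 CPM in translocation tumours 1 to 5, and 868 to 5505 CPM with a median of 2814 CPM in the Rosa26 tumours. Translocation tumour 4 lay within the Rosa26 range, and the other translocation tumours lay below it, with tumour 5 lowest. The means were 481 ± 738 CPM (SD, n = 5) and 2748 ± 1651 CPM (SD, n = 6), and the log2 fold change was -2.51 ± 1.09 (SE, edgeR adjusted p = 0.1796). Without translocation tumour 4 it was -4.14 (edgeR adjusted p = 0.0584).

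Cxcl12, the ligand of Cxcr4 and Ackr3 that retains blood stem cells in marrow, was 351, 254, 8.66, 28.4 and 12.6 CPM in translocation tumours 1 to 5 and 29.8 to 226 CPM with a median of 70.9 CPM in the Rosa26 tumours. Translocation tumours 1 and 2 lay above all Rosa26 tumours and tumours 3 to 5 below them, so the mean described neither (log2 fold change 0.61, edgeR adjusted p = 0.721, and -0.20 without tumour 1). The fibroblast markers, summed over 6 genes, were 141 to 19446 CPM in the translocation tumours and 4876 to 94941 CPM in the Rosa26 tumours. Their sum was 2479 and 1208 CPM in translocation tumours 1 and 2, where Cxcl12 was highest, and 19446 CPM in tumour 4, where Cxcl14 was highest among the translocation tumours. The collagen genes Col1a1 and Col1a2 made up most of that sum, at 6084 and 13014 CPM in tumour 4. Pdgfra, a receptor of fibroblasts, was highest in translocation tumour 1, at 81.0 CPM, against 69.9 CPM in tumour 4, and Dcn was 186 and 49.9 CPM in these tumours. Their part in the Cxcl12 and Cxcl14 values was not tested.

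Of the 7 leukocyte receptors tested, 5 had negative fold changes and Ccr1 and Cxcr4 positive ones. By edgeR 0 of the 7 were called (3 at an unadjusted p under 0.05, against 24.8% of all genes). DESeq2 called 2 (Ccr7 and Cx3cr1, both lower) and limma voom 1 (Cxcr4, higher). Of all 17021 genes tested, DESeq2 called 2439 and limma voom 2677. Ccr1, a receptor of monocytes and neutrophils for Ccl6 and Ccl9, was 56.7, 25.2, 32.6, 37.1 and 7.78 CPM in translocation tumours 1 to 5. The Rosa26 tumours held 1.91 to 49.0 CPM with a median of 16.9 CPM, overlapping the translocation tumours (log2 fold change 0.73 ± 0.64 SE, edgeR adjusted p = 0.511). Ccr2, the receptor for Ccl2, Ccl7 and Ccl12 on inflammatory monocytes, was 2.21 to 21.3 CPM and 3.59 to 60 CPM (log2 fold change -1.21, edgeR adjusted p = 0.289). Cxcr4 was narrow, at 10.4 to 27.1 CPM and 7.62 to 15.9 CPM (log2 fold change 0.54, edgeR adjusted p = 0.302).

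Ccr7, the receptor that takes dendritic cells and naive T cells to lymph nodes, was 0.752, 0, 1.41, 0.394 and 0.0515 CPM in translocation tumours 1 to 5. In the Rosa26 tumours it was 0.683 to 16.0 CPM with a median of 2.20 CPM, highest in tumour 1. Rosa26 tumours 2 and 6 lay within the translocation range (log2 fold change -2.84 ± 1.01 SE, edgeR adjusted p = 0.116, and -1.65 without Rosa26 tumour 1).

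Cxcr6, the receptor of resident and effector T cells for Cxcl16, was 0.430, 2.48, 0.618, 0.731 and 0.206 CPM in translocation tumours 1 to 5 and 0.342 to 11.7 CPM with a median of 1.78 CPM in the Rosa26 tumours. Rosa26 tumour 1 was again the highest and the rest overlapped (log2 fold change -2.07 ± 0.93 SE, edgeR adjusted p = 0.196, and -0.93 without Rosa26 tumour 1). Cxcr6 overlaps Fyco1 on the other strand. Ackr3, an atypical receptor that takes up Cxcl12 without G protein signalling, was 75.4, 19.8, 82.7, 34.6 and 31.9 CPM in translocation tumours 1 to 5 and 21.6 to 69.0 CPM with a median of 36.4 CPM in the Rosa26 tumours. The Ackr3 ranges nearly coincided (log2 fold change 0.31 ± 0.41 SE, edgeR adjusted p = 0.677).

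Several genes took their highest value in the same tumour. Of the 26 tested, 9 were highest of all 11 tumours in translocation tumour 1, or 34.6%, against 7.26% of all genes tested. Rosa26 tumour 1 was highest for 6, or 23.1%, against 11.4% of all genes. Translocation tumour 5, the highest tumour for 28.4% of all genes, was highest for 1 of the 26, or 3.85%, and was the lowest translocation tumour for 12, against 32.8% of all genes. In NK cell markers translocation tumour 1 also stood apart, with a sum of 80.03 CPM against 1.33 to 20.1 CPM in the other 10 tumours. The granule genes Gzma and Prf1, which cytotoxic T cells share, gave 60.4 and 15.5 CPM of it. The NK cell receptors Ncr1 and Klrb1c, at 0.859 and 2.26 CPM, did not stand apart there, with 2.36 and 3.60 CPM in translocation tumour 4.

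Set beside muscle, most of the genes that differed were higher in the tumours, without a test, since there was 1 muscle library that both comparisons share. A gene was counted where all tumours of a genotype lay above, or all below, the muscle library and the mean was at least 2-fold away, among genes at 1 CPM or more in either. In the translocation tumours 12 of 24 genes were higher (50%, against 22.6% of all genes) and 0 were lower (against 24% of all genes). In the Rosa26 tumours 16 of 28 were higher (57.1%, against 33.4% of all genes) and 1 was lower (against 28.4% of all genes). The lower gene was Ccl11, at 8.11 CPM in muscle and a mean of 3.94 CPM in the Rosa26 tumours on the scale of all 12 libraries. On the same scale Ccl8 was 2.54 CPM in muscle, with means of 468 and 272 CPM in the translocation and Rosa26 tumours. Cxcl14 was 9.77 CPM in muscle, with means of 440 and 2555 CPM, and it met the rule in the Rosa26 tumours but not in the translocation tumours. Pf4 met it in the translocation tumours but not in the Rosa26 tumours.

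The pathway around these genes was described from lists of related genes. Of 23 other chemokines and receptors, 8 had enough counts and edgeR called 0 (3 positive and 5 negative fold changes, median log2 fold change -0.84). At an unadjusted p under 0.05 there were 4, and DESeq2 called 2 and limma voom 1. For these lists the background is 24.8% of all 17021 genes at an unadjusted p under 0.05, with 2439 called by DESeq2 and 2677 by limma voom. Of 20 inducers of chemokines and their regulators, such as Tnf, Il1b and Nfkbia, 11 were tested and edgeR called 0. At an unadjusted p under 0.05 there was 1, with 0 called by DESeq2 and 0 by limma voom. The list had 5 positive and 6 negative fold changes and a median log2 value of -0.24. Il17a, a cytokine that induces neutrophil attractants, was 42.1 CPM in translocation tumour 5, the tumour second highest in Cxcl2 and Cxcl3, with no other tumour above 0.184 CPM. In translocation tumour 1, the highest in Cxcl2 and Cxcl3, Il17a was 0 CPM. Il6, Il1b and Csf3 were highest of all tumours there, at 11.7, 8.06 and 3.55 CPM, as were Il1a, Nfkbia and Tnfaip3. The other inducers listed were highest in other tumours, as Tnf was in Rosa26 tumour 1, at 4.40 CPM. The part of any of these in the levels of the ligands was not tested. A list of 18 genes held mostly genes that signal below the receptors, with Dpp4 and Mif, which act outside the cell. All 18 were tested and edgeR called 0 (3 at an unadjusted p under 0.05, 1 by DESeq2 and 1 by limma voom). There were 8 positive and 10 negative fold changes, with a median log2 value of -0.16.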

How the data were processed

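RNA was measured in 11 tumours and 1 muscle by sequencing after depletion of ribosomal RNA with a stranded kit, per the labels' protocols. The authors deposited whole-number counts per Ensembl gene, not normalized. Per the submitters' processing notes, the tools were STAR 2.7.5a, cutadapt, RSEM, featureCounts and DESeq2 and the build was mm10, with no role stated. Annotation, strand setting and handling of multiply mapped reads were not given in the sources used here. Overlapping genes and close copies may therefore share reads. No column belonged to another sample. Symbols, positions and exon lengths came from GENCODE on mm10.

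Groups followed the genotype in the labels, and all pairs of libraries within a group differed beyond sampling noise (smallest median chi-square per gene 5.24). The 11 tumours were compared by robust quasi-likelihood fits in edgeR 4.0.16 (R 4.3.3) after TMM scaling and filterByExpr with a minimum count of 10, and p-values were adjusted by Benjamini-Hochberg over all 17021 genes, at 0.05. The script of this fit was tested on simulated data. The standard error is the absolute log2 fold change divided by the square root of the F statistic. CPM uses TMM factors from the 11 tumours, or from all 12 libraries where that scale is named. A count under 3 in muscle was set to 3 counts for the fold, and floors cover counting error only.

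The genes and lists were chosen with earlier results of these data known. Values in every translocation tumour, with the Rosa26 values summarised, were given for some genes. These were called, did not overlap between groups, had an absolute log2 fold change of 2 or more, or had the highest mean CPM of their role. Cxcl3, Cxcl10, Cxcl12, Cx3cl1 and Cx3cr1 were added after their values were seen. RefSeq promoter windows were found for 28 of the 38 genes, and not for Ccl2, Ccl4, Ccl5, Ccl7, Ccl11, Ccl24, Cxcl5, Cxcl11, Cxcl16 and Ccr7. Protein sequences were not analysed here, and some genes of the related and marker lists are not reported here. Alternatives were DESeq2 size factors, upper-quartile scaling, the DESeq2 1.42.0 Wald test, limma 3.58.1 voom with quality weights, a filter of 1 CPM in 5 tumours, no filter, muscle kept in the fit, Rosa26 tumours 5 and 6 summed, sex as a covariate (read from Xist and Y-linked genes), translocation tumours 2 and 5 and Rosa26 tumour 4 left out, and leaving out every tumour singly.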

Additional observations from a re-analysis of the deposited data

Results flagged for a closer look

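Within the 5 translocation or 6 Rosa26 tumours, 17 of 53 sets of values held a tumour whose gap to the nearest other was large beside the range of the group (Dixon's 95% critical value). For normally distributed values chance would flag about 1 in 20 groups. Low and skewed counts such as these can be flagged more often, so the 17 of 53 cannot be read against that rate. Of the 17, 7 were translocation tumour 1, namely Ccl2 at 11.6 CPM, Ccl11 at 12.7 CPM, Cxcl1 at 11.7 CPM, Cxcl2 at 26.9 CPM, Cxcl3 at 10.96 CPM, Cxcl5 at 3.87 CPM and Ppbp at 4.19 CPM. In Rosa26 tumour 1 there were 4, namely Ccl5 at 19.4 CPM, Ppbp at 5.26 CPM, Ccr7 at 16.0 CPM and Cxcr6 at 11.7 CPM. In Rosa26 tumour 4 there were 3, namely Ccl17 at 8.58 CPM, Cxcl16 at 98.3 CPM and Cx3cl1 at 52.0 CPM. Cxcl12 at 226 CPM and Cx3cr1 at 78.5 CPM stood apart in Rosa26 tumour 5, and Cxcl14 at 1778 CPM in translocation tumour 4. The values of different genes in 1 tumour are not independent.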

How the results depend on the processing

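Of the 26 genes tested, 2 were called in the fit reported, 8 by the DESeq2 Wald test and 7 by limma voom. With sex as a covariate 6 of the 26 were called, and 1 with Rosa26 tumours 5 and 6 summed. Ccl5, Ccl22 and Ccr7, all lower, were called by DESeq2 and with sex as a covariate, and Cxcl1 (higher) and Cxcl14 (lower) by DESeq2 and voom. Cx3cl1 (higher) was called by voom (limma voom adjusted p = 0.0179). It was also called without translocation tumours 2 and 5 and Rosa26 tumour 4 (edgeR adjusted p = 0.0442). Over all genes the counts, in the same order, were 460, 2439, 2677 and 2534 of 17021, and 91 of 16684. With each tumour left out in turn, 0 to 2 of those tested were called. There were 0 without Rosa26 tumour 3 or 6 and 1 without translocation tumour 1 or Rosa26 tumour 5. Over all genes, calls in these fits ran from 63 of 16666 (without Rosa26 tumour 3) to 744 of 17433 (without translocation tumour 5). Pf4 was called in 9 of 11 of these fits and in 10 of 10 others, and Cxcl9 in 6 of 11 and in 8 of 10, missing also without translocation tumours 2 and 5 and Rosa26 tumour 4 (log2 fold change -4.22, edgeR adjusted p = 0.0861). Directions that turned belonged to genes with no call: with voom Cxcl12 had -0.29, Cxcl13 0.42 and Cxcl16 0.23, and without translocation tumours 2 and 5 and Rosa26 tumour 4 Cxcl16 had 0.32. With single tumours left out, log2 fold changes ran from -0.50 to 1.22 for Ccl2, -0.20 to 1.18 for Cxcl12, -2.05 to 0.04 for Ccl11 (0.0377, 0.0305 and 0.0215 without translocation tumours 3 and 5 and Rosa26 tumour 1) and -1.27 to 0.65 for Cxcl13. Genes lower than muscle numbered 0 in the Rosa26 tumours at a fold of 4, and 0 to 1 in either genotype with single tumours left out. The cause of these changes was not tested. No paired analysis was possible because the labels number no replicates, and the numbers used here only name the samples. Depth limits the genes near 0, above all in translocation tumour 2, where 3 counts are 1.49 CPM.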
